A study of Mus musculus with 4 samples.

Results

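Heparan sulfate is a long, sulfated sugar chain that is attached to a small set of core proteins, and 10 of the genes that carry it, trim it or cut it were followed here across mesenchymal progenitor cells (MPC). They were heparanase (Hpse), the extracellular sulfatases Sulf1 and Sulf2, the syndecans Sdc1, Sdc2 and Sdc4, and the glypicans Gpc1, Gpc3, Gpc4 and Gpc6. These 10 genes of 32285 counted were chosen from earlier results of these data, in which Hpse differed between libraries, so their levels are a description and carry no test.

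Single-cell RNA sequencing (scRNA-seq) had been run on C3H10T1/2, a mouse mesenchymal progenitor line, in 4 libraries with 1 library per condition. The cells expressed either wild-type histone H3 (H3WT) or H3 with arginine 26 replaced by cysteine (H3R26C), and each genotype was given 5-Azacytidine (5-Aza) or its vehicle (DMSO). All 4 libraries therefore carried a human H3 transgene with HA and FLAG tags, driven by the EF1 promoter of a lentiviral vector under puromycin selection, in cells that kept their own H3 genes. 5-Aza, a cytidine analogue that blocks DNA methyltransferases, was present for 24 h at 3 µM, and collection followed on day 28. A separate collection day for the DMSO cells is not given in the sources used here. Cells are not replicates of a condition, so intervals below are 95% intervals of counting error only, and differences between cultures of a condition are not measured by them.

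Heparanase is the enzyme that cuts heparan sulfate chains in the matrix and in lysosomes. Sulf1 and Sulf2 remove the 6-O-sulfate groups that growth factors recognise, and are well known as modulators of FGF and Wnt signalling. Syndecans span the membrane and glypicans are held to it by a lipid anchor, and both hold growth factors beside their receptors. In mesenchymal cells these carriers take part in adhesion and in the response to FGF, HGF and BMP ligands.

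After the study's own filter of at least 5000 UMIs, at least 1500 genes and at most 20% mitochondrial UMIs, 22049 of 39891 barcodes were kept. They were 3710 H3WT DMSO, 5993 H3WT 5-Aza, 4727 H3R26C DMSO and 7619 H3R26C 5-Aza cells, with 84060490 to 110712425 UMIs per library and a median of 13123 to 22420 UMIs per cell. Of 9 mesenchymal markers, 8 reached 1 count per 1000000 UMIs (CPM) in every library, whereas Nt5e was at 0 in both DMSO libraries and below 1 CPM in the others. Blood markers summed to 4.62 to 14 CPM, endothelial markers to 4.69 to 10.6 CPM and epithelial markers to at most 0.325 CPM. Between 91 and 145 kept barcodes of each library also occurred in another library, and leaving these cells out changed no ratio of the 10 genes beyond its counting interval.

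The DNA methyltransferases that 5-Aza blocks act on CpG dinucleotides, so some promoters are shown with their CpGs. They belong to the gene that differed most (Hpse) and to a gene near the limit of detection (Gpc3). Also shown is the gene that was past 2-fold lower after 5-Aza in H3R26C (Sulf2, which has 2 listed promoters). The windows run from 250 bases before to 50 bases after the start of transcription and come from RefSeq on build GRCm38.p6, which shares coordinates with the mm10 build of the counts. Each CpG is in capitals.
Hpse, minus strand of chr5:100719667-100719966: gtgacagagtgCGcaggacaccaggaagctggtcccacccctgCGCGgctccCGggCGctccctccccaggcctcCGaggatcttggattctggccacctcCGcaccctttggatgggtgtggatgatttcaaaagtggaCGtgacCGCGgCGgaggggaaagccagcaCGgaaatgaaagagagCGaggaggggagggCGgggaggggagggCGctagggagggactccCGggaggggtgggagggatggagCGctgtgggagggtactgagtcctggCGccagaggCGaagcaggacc
Sulf2, minus strand of chr2:166155634-166155933: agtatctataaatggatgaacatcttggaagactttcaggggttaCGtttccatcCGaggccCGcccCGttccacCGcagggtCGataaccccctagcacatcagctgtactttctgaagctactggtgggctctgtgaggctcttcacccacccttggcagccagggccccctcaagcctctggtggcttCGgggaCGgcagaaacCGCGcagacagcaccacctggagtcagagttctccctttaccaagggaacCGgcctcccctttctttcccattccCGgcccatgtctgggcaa
Sulf2, minus strand of chr2:166155236-166155535: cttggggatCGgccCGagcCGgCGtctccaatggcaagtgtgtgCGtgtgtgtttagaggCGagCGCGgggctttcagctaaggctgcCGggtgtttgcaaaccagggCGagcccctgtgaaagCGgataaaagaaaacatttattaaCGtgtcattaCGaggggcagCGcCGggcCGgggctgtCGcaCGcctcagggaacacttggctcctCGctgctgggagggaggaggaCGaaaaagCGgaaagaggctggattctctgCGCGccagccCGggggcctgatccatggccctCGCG
Gpc3, minus strand of chrX:52613925-52614224: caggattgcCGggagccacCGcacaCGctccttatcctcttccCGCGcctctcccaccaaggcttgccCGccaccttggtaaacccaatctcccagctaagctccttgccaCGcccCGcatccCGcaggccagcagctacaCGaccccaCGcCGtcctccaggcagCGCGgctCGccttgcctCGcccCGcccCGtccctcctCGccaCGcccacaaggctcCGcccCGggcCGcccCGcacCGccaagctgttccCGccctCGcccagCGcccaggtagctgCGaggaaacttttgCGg
The Hpse window held 19 CpGs, the Sulf2 windows 12 and 26, and the Gpc3 window 30, against a median of 7 over 32851 mouse promoters of that length. Of those promoters, 71.9% held fewer CpGs than the Hpse window. For the Sulf2 windows this share was 60.4% and 83.1%, and for the Gpc3 window 88.3%. Promoters were matched for 6 of the 10 genes (Hpse, Sulf2, Sdc1, Sdc4, Gpc3 and Gpc4), and the windows of Sdc1, Sdc4 and Gpc4 held 14, 22 and 22 CpGs. The GC box GGGCGG, searched on both strands, occurred 1 time in the Hpse window, 3 times in Sdc1, 4 times in Sdc4 and in Gpc3, 1 time in Gpc4 and in 1 of the Sulf2 windows, and 35.7% of all promoters held it. DNA methylation was not measured in these libraries.

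Hpse lies on the minus strand of chromosome 5 (100679484 to 100719716) and overlaps no other annotated gene. Its level was 1.19 CPM in H3WT DMSO, 3.75 in H3WT 5-Aza, 3.82 in H3R26C DMSO and 50.3 in H3R26C 5-Aza, from 103, 316, 321 and 5564 UMIs. H3R26C 5-Aza stood far above the other 3 libraries, and the intervals of H3WT 5-Aza (3.34 to 4.18) and H3R26C DMSO (3.41 to 4.26) overlapped. With DMSO, Hpse was 3.22-fold higher in H3R26C than in H3WT (2.57 to 4.06), and with 5-Aza it was 13.4-fold higher (12 to 15.1). The 5-Aza library was 3.16-fold above the DMSO library in H3WT (2.52 to 3.99) and 13.2-fold above it in H3R26C (11.8 to 14.8).

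To compare shares of cells at one depth, every cell was thinned to 5000 UMIs. In H3WT a UMI of Hpse was then found in 0.539% of cells with DMSO and 1.62% with 5-Aza, and in H3R26C in 1.57% with DMSO and 20% with 5-Aza (1523 of 7619 cells). Without thinning these shares were 2.18%, 4.57%, 5.92% and 38.2%. The mean per positive thinned cell was 1.33 UMIs in H3R26C 5-Aza against 1.03 to 1.10 in the other 3 libraries. Both the share and this mean rise with the level, so they do not tell more expressing cells from more transcript per cell. The most UMIs in any one unthinned cell were 5, 4, 4 and 14, in the same order of libraries. Barcodes under 5000 UMIs, which the filter left out, had Hpse at 37.9 CPM in H3R26C 5-Aza (33.4 to 42.8) and at 1.07, 3.47 and 1.54 CPM in H3WT DMSO, H3WT 5-Aza and H3R26C DMSO. Just above the UMI minimum, from 5000 up to 5500 UMIs, 107 H3R26C 5-Aza cells had Hpse at 69.2 CPM, and just below it, from 4500 up to 5000 UMIs, 117 barcodes had it at 48.7 CPM. How much free RNA contributes to the share of cells with a UMI was not tested. In the class of muscle-marker cells described below, 12.6% of H3R26C 5-Aza and 1.76% of H3WT 5-Aza cells had a UMI of Hpse.

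**Figure D1:**
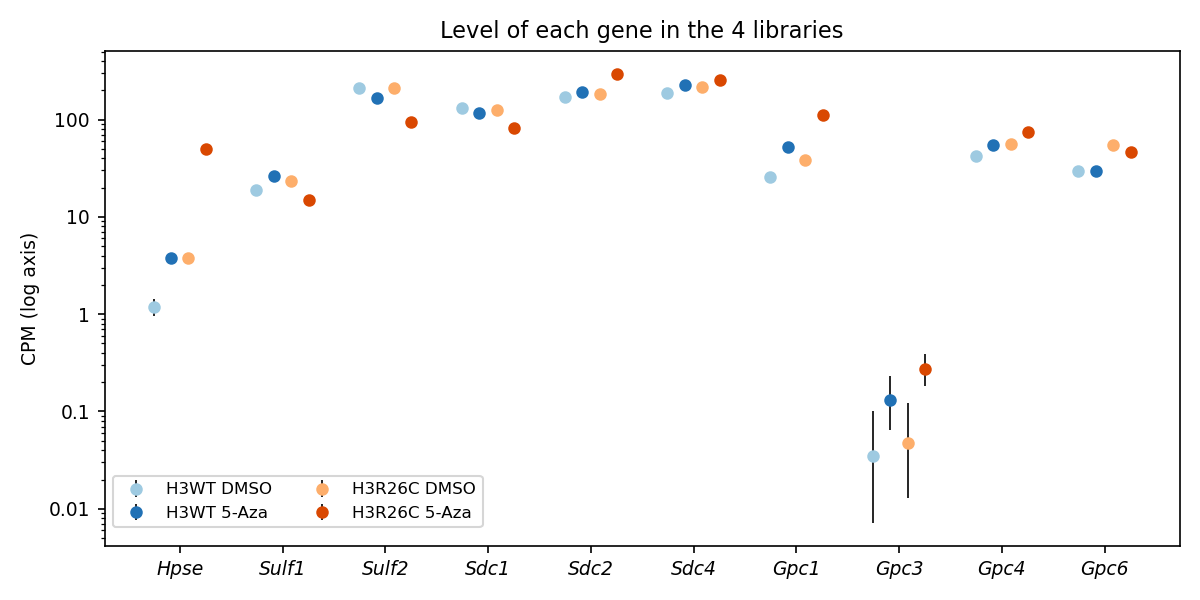
Level of each of the 10 genes in CPM (log axis) in the 4 libraries, with 95% Poisson intervals of the counts. Hpse reached 50.3 CPM in H3R26C 5-Aza and 1.19 to 3.82 CPM elsewhere, whereas Gpc3 stayed at or below 0.271 CPM.

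The 2 sulfatases were lowest in the library where Hpse was highest. Sulf1 (plus strand of chromosome 1, 12692277 to 12861192) was at 18.8 CPM in H3WT DMSO, 26.1 in H3WT 5-Aza, 23.3 in H3R26C DMSO and 14.8 in H3R26C 5-Aza. Its order between the genotypes thus turned around: H3R26C was 1.24-fold above H3WT with DMSO (1.16 to 1.32) and at 0.566 of it with 5-Aza (0.530 to 0.603). After 5-Aza, Sulf1 was 1.39-fold higher in H3WT (1.30 to 1.48) and at 0.634 of the DMSO level in H3R26C (0.593 to 0.677). The share of thinned cells with a UMI was 9.46%, 11%, 9.65% and 6.51% in the same order of libraries. Unlike the levels, the shares of the 2 DMSO libraries had overlapping intervals (8.54% to 10.4% in H3WT and 8.82% to 10.5% in H3R26C). The mean per positive thinned cell was 1.15 UMIs in H3WT DMSO and 1.26 in H3R26C DMSO.

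Sulf2 (minus strand of chromosome 2, 166073089 to 166155663) was at 209.8 CPM in H3WT DMSO, 168 in H3WT 5-Aza, 213 in H3R26C DMSO and 94.8 in H3R26C 5-Aza. The 2 DMSO libraries did not differ beyond counting error (ratio 1.02, 0.996 to 1.04), and both 5-Aza libraries were below them. In H3R26C the 5-Aza library held 0.444 of the DMSO level (0.434 to 0.455), and in H3WT it held 0.803 (0.786 to 0.821). With 5-Aza, H3R26C was at 0.563 of H3WT (0.549 to 0.577). A UMI was found in 56.7% of thinned cells in each DMSO library, in 47.4% of H3WT 5-Aza and in 33.4% of H3R26C 5-Aza cells. The gene body of Sulf2 overlaps Ncoa3, a coactivator gene on the opposite strand, and whether the counting used strand is not given in the sources used here.

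The syndecans differed in direction. Sdc1 (plus strand of chromosome 12, 8771323 to 8793715), a receptor for matrix proteins, was at 130.3 CPM in H3WT DMSO, 118 in H3WT 5-Aza, 126 in H3R26C DMSO and 82.7 in H3R26C 5-Aza. Its lowest library was the same as that of the sulfatases, at 0.701 of H3WT 5-Aza (0.681 to 0.721) and 0.658 of H3R26C DMSO (0.640 to 0.677).

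Sdc2 (plus strand of chromosome 15, 32920723 to 33034935), the syndecan best known from fibroblasts and bone-forming cells, went the other way, with 171, 194, 181 and 296 CPM in the same order of libraries. The 3 other libraries lay within 171 to 194 CPM, and H3R26C 5-Aza was 1.53-fold above H3WT 5-Aza (1.50 to 1.56) and 1.64-fold above H3R26C DMSO (1.61 to 1.67). A UMI of Sdc2 was found in 70.0% of thinned H3R26C 5-Aza cells and in 53.2% to 57.7% of the cells of the other libraries.

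Sdc4 (minus strand of chromosome 2, 164424247 to 164443887), a component of focal adhesions, was at 188, 224, 216 and 252 CPM. It varied least, with ratios of 1.13 to 1.19 in all 4 comparisons.

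**Figure D2:**
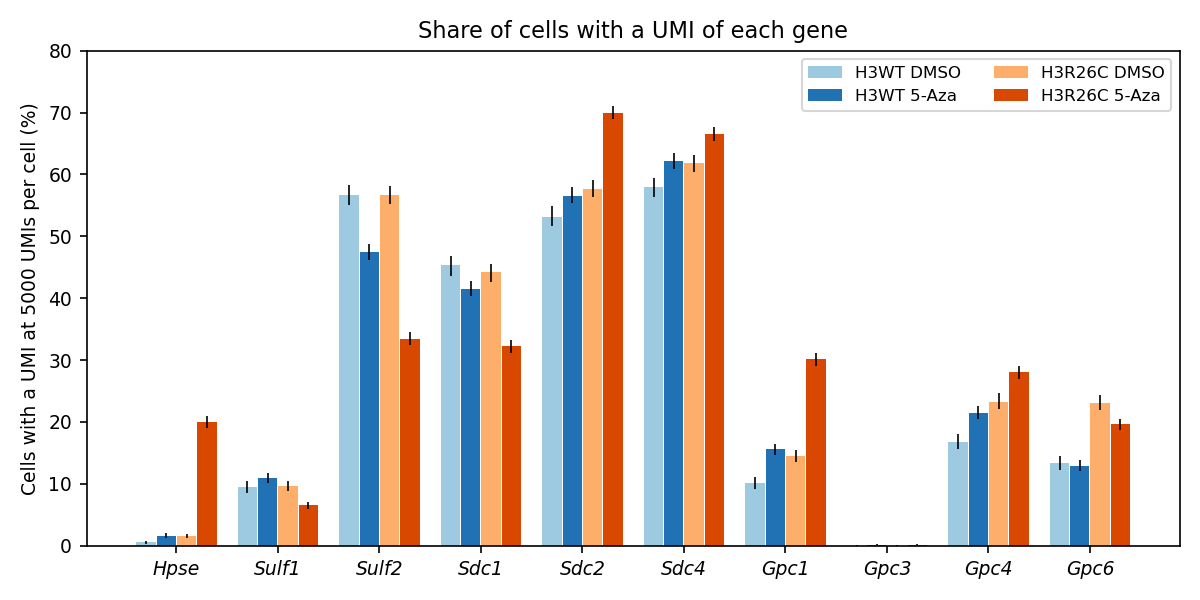
Share of cells with at least 1 UMI of each gene (percent) after thinning every cell to 5000 UMIs, with exact binomial 95% intervals, for the 4 libraries. The share of Hpse was 20% in H3R26C 5-Aza and at most 1.62% elsewhere, whereas that of Sulf2 was lowest in H3R26C 5-Aza at 33.4%.

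Among the 3 glypicans that averaged 1 CPM or more, Gpc1 had the largest ratios between the 5-Aza and DMSO libraries. Gpc1 (plus strand of chromosome 1, 92831645 to 92860779), a coreceptor for FGF ligands, was at 25.5 CPM in H3WT DMSO, 52 in H3WT 5-Aza, 38.1 in H3R26C DMSO and 110.2 in H3R26C 5-Aza. Each 5-Aza library was above both DMSO libraries, by 2.04-fold within H3WT (1.94 to 2.15) and by 2.89-fold within H3R26C (2.78 to 3). In cells outside the muscle, adipocyte and cycling classes described below, these ratios were 1.50 (1.41 to 1.59) and 2.34 (2.23 to 2.45). H3R26C exceeded H3WT by 1.49-fold with DMSO (1.42 to 1.58) and by 2.12-fold with 5-Aza (2.05 to 2.19). Up to 65 UMIs were found in a single H3WT 5-Aza cell. Ankmy1 and 2 antisense genes, Gm29481 and Gm29480, lie on the opposite strand of Gpc1.

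Gpc4 (minus strand of chromosome X, 52053021 to 52165252), a growth factor coreceptor, was at 42, 54.6, 56.6 and 73.8 CPM in the same order of libraries. The genotype ratio was 1.35 with DMSO (1.29 to 1.41) and 1.35 with 5-Aza (1.30 to 1.40), and the treatment ratio was 1.30 in each genotype. Gpc6 (plus strand of chromosome 14, 116925315 to 117976544), which is required for normal skeletal growth, was at 29.9, 29.7, 54.7 and 45.9 CPM. H3R26C thus exceeded H3WT by 1.83-fold with DMSO (1.74 to 1.92) and by 1.55-fold with 5-Aza (1.47 to 1.62), whereas the 2 H3WT libraries did not differ beyond counting error (ratio 0.994, 0.940 to 1.05).

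Gpc3 (minus strand of chromosome X, 52272426 to 52613950), a glypican best known for restraining body growth, was counted 3 times in H3WT DMSO, 11 times in H3WT 5-Aza, 4 times in H3R26C DMSO and 30 times in H3R26C 5-Aza, never more than once in a cell. These counts are 0.0345, 0.130, 0.0476 and 0.271 CPM. With 5-Aza, the H3R26C level was 2.08 times that of H3WT, with an interval of 1.01 to 4.60. Within H3R26C, the 5-Aza level was 5.69 times that with DMSO (2.01 to 22.2), and within H3WT it was 3.78 times (0.998 to 21.1). Gpc3 lies 107 kb from Gpc4, with 0 protein-coding genes between them, on the same strand. Gpc4 was counted 3645 to 8172 times per library. The antisense genes Gm14582 and A630012P03Rik overlap Gpc3.

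Summed over the 7 carriers, the level was 587 CPM in H3WT DMSO, 672 in H3WT 5-Aza, 672 in H3R26C DMSO and 861 in H3R26C 5-Aza. The syndecans among the 7 made 489, 535, 523 and 631 CPM of this and the glypicans 97.4, 136, 149 and 230.2 CPM. A thinned cell had a UMI of 1.97, 2.10, 2.25 and 2.47 different carriers on average, in the same order of libraries. The library with the most Hpse, whose product cuts the chains of these carriers, thus also had the largest summed level of the 7. Other carriers were not in this sum. The 8 of them that averaged 1 CPM or more had a median log2 ratio of -0.05 between genotypes with 5-Aza. The levels of these 8 were not summed. Among them, Hspg2 was at 105 CPM in H3R26C 5-Aza and 167 CPM in H3WT 5-Aza, and Nrp1 at 65.5 and 115 CPM. Cd44 went the other way, at 57.4 and 25.7 CPM, as did Tgfbr3 (77.2 and 60.5 CPM) and Srgn (53.5 and 44.6 CPM). Sdc3, Agrn and Col18a1 had ratios of 0.932 to 0.988.

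The 10 genes were set beside the 12482 genes that averaged 1 CPM or more over the libraries. Of the 10, 9 passed this minimum and Gpc3 did not. A gene was counted as past 2-fold at a log2 ratio of at least 1 or at most -1, computed with 1 CPM added to each level. In H3R26C against H3WT with DMSO, 1 of the 9 was past 2-fold higher (Hpse, log2 ratio 1.14) where 1.82% of all genes were, and 0 were past 2-fold lower where 0.577% were. In cells thinned to 5000 UMIs this log2 ratio of Hpse was 0.95, short of 2-fold. With 5-Aza, 2 were higher in H3R26C (Hpse at 3.43 and Gpc1 at 1.07) where 4.21% of all genes were, and 0 were lower where 2.68% were. In 5-Aza against DMSO, 1 of the 9 was higher in H3WT (Hpse, 1.12) against 4.38% of all genes, and 0 were lower against 0.272%. Gpc1 lay just short of 2-fold there and passed it with a smaller pseudocount or another cell filter. Without muscle-marker, adipocyte-marker and cycling cells its log2 ratio there was lower, at 0.56. In H3R26C, 2 were higher (Hpse at 3.41 and Gpc1 at 1.51) against 7.27%, and 1 was lower (Sulf2, -1.16) against 3.12%. Since Hpse was picked with these contrasts known, nothing about the group as a whole is read from these counts. The comparisons also share libraries with each other, so their values are given side by side only.

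The median log2 ratio of the 9 genes was 0.29 for the genotypes with DMSO and 0.43 with 5-Aza, beside 0.034 and -0.034 over all 12482 genes. For 5-Aza against DMSO it was 0.25 in H3WT and 0.22 in H3R26C, beside 0.040 and -0.038. These medians are a description, and nothing about the group as a whole is read from them. The change with 5-Aza was larger in H3R26C than in H3WT by 2.29 log2 units for Hpse, with 1 CPM added to each level. Since Hpse was picked with these contrasts known, its rank among all genes is not read. For Sulf2, which was lower with 5-Aza in both genotypes, the log2 ratio went from -0.31 in H3WT to -1.16 in H3R26C, a difference of -0.85. For Sulf1 it went from 0.45 to -0.62, a difference of -1.07. Differences of these sizes were exceeded by 6.26% and 3.61% of genes. For Sdc2, Gpc1 and Sdc1 this share was 14.6%, 15.7% and 18.5%. For Gpc6, Gpc3, Sdc4 and Gpc4 it was 43.8%, 61.8%, 91.7% and 98.8%. All these genes were chosen with earlier results of these data known, so nothing is read from their shares either. For Gpc4 and Sdc4 the 2 genotypes differed by 0.01 and -0.03 in their change.

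**Figure D3:**
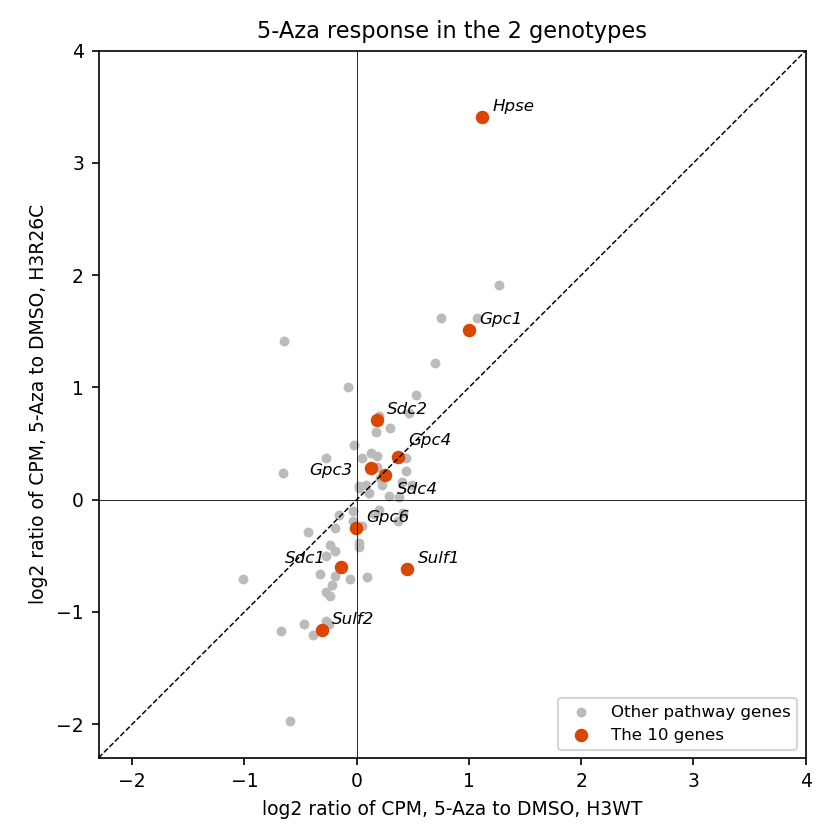
Log2 ratio of CPM between the 5-Aza and the DMSO library in H3WT (horizontal) and H3R26C (vertical), for the 10 genes (orange) and 59 other heparan sulfate pathway genes (grey), with 1 CPM added to each level. Hpse (1.12 and 3.41) lies far above the dashed line of equal change, Gpc4 and Sdc4 lie on it, and Sulf1 (0.45 and -0.62) lies below it.

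Cells of each library were next divided into classes by marker genes that include none of the 10. The cut points are ranges of a UMI count and not cell types. Spp1-high cells, with at least 10 UMIs of osteopontin (Spp1) at 5000 UMIs per cell, made 2.75% of cells with DMSO and 11.8% with 5-Aza in H3WT, and 6.96% and 57.9% in H3R26C. The class was largest in the library where Hpse was highest, and it was larger in H3WT 5-Aza than in H3R26C DMSO, which had like levels of Hpse. In H3R26C 5-Aza, a UMI of Spp1 was present in 91.4% of thinned cells outside the muscle-marker class given below and in 87.7% inside it. These shares were 51.7% and 37% in H3WT 5-Aza. The part of free RNA in the size of the Spp1-high class was not tested. Each class was compared with the cells of its own library that were outside it and in none of the muscle, adipocyte and cycling classes given below. Classes could overlap: a Spp1-high, Enpp2-high or interferon cell that was also in one of those classes stayed in its own class.

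Within every library, Spp1-high cells had less of both sulfatases and more Gpc1 than the other cells. Sulf2 was at 91.3 CPM in Spp1-high and 218 CPM in other cells of H3WT DMSO, at 92.7 and 190.2 in H3WT 5-Aza, at 110.4 and 233 in H3R26C DMSO and at 67.9 and 155 in H3R26C 5-Aza. These are 0.418 to 0.488 of the other cells, a narrow range over the 4 libraries. Sulf1 was at 3.38, 14.4, 1.09 and 8.02 CPM in Spp1-high cells and at 20.3, 29.7, 27.4 and 29.2 CPM in other cells, in the same order of libraries. Gpc1 was 3.99-fold, 2.39-fold, 2.56-fold and 2.33-fold higher in Spp1-high cells. The part of muscle-marker and cycling cells within the Spp1-high class in these ratios was not tested.

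Hpse was at 7.80 CPM in Spp1-high and 2.94 CPM in other cells of H3WT 5-Aza, a ratio of 2.65 (2.04 to 3.44). In H3R26C DMSO it was at 10.9 and 2.72 CPM, a ratio of 4.01 (3.05 to 5.24). In H3R26C 5-Aza it reached 64 CPM in Spp1-high cells, from 4239 UMIs, which is 2.13 times the level in the other cells (1.99 to 2.29). In H3WT DMSO only 5 UMIs fell in 102 Spp1-high cells, and the ratio of 1.48 had an interval of 0.469 to 3.60. Gpc6 was lower in Spp1-high cells of all 4 libraries, at 0.792 to 0.866 of the other cells, and Sdc1 differed by ratios of 0.905 to 1.07.

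**Figure D4:**
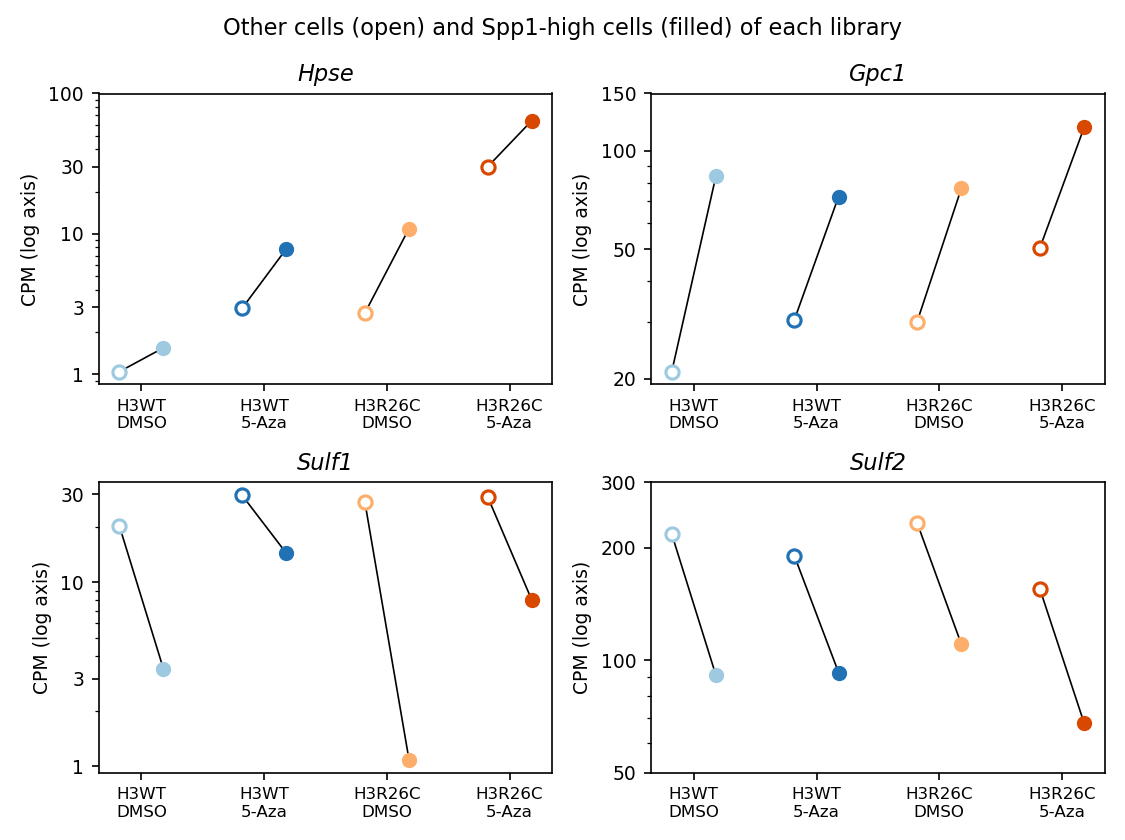
CPM (log axis) of Hpse, Gpc1, Sulf1 and Sulf2 in Spp1-high cells (filled points) and in other cells (open points) of each library, joined by a line. Hpse and Gpc1 were higher and Sulf1 and Sulf2 lower in Spp1-high cells of all 4 libraries, although for Hpse in H3WT DMSO the counting interval of the ratio spanned 1.

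The genotype difference was then taken between cells of the same class with 5-Aza. Among Spp1-high cells, Hpse was at 64 CPM in H3R26C and 7.80 CPM in H3WT, a ratio of 8.21 (6.64 to 10.3). Among cells that were neither Spp1-high nor Enpp2-high and in none of the muscle, adipocyte and cycling classes, a set added after the values were seen, it was at 26 and 2.87 CPM, a ratio of 9.07 (7.71 to 10.7). The ratio over the whole libraries was 13.4. It was 19.5 in the Enpp2-high cells described below (12.1 to 33.6), 14.4 in muscle-marker cells (6.85 to 36.5), 10.9 in adipocyte-marker cells (3.54 to 44.3) and 5.89 in cycling cells (4.42 to 7.99). The ratio was 11.4 in interferon cells, described below (8.09 to 16.6). The ratios of Enpp2-high and muscle-marker cells rest on 17 and 7 H3WT UMIs, and their intervals held 13.4. So did those of adipocyte-marker and interferon cells. The intervals of Spp1-high cells, the added set and cycling cells lay below 13.4. H3R26C was higher in each of these classes, and the part of the class sizes in the whole-library ratio was not tested. Gpc1 was 1.63-fold higher in H3R26C in the first set and 1.64-fold in the second, against 2.12-fold over all cells.

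Sulf1 behaved differently in the 2 sets. In the second set, which kept the interferon cells and is called outside the classes here, it was at 29.9 CPM in each genotype with 5-Aza (ratio 0.999, 0.923 to 1.08). In Spp1-high cells, by contrast, H3R26C was at 0.555 of H3WT (0.465 to 0.666). In H3R26C its level with 5-Aza was 1.07 times that with DMSO outside the classes (0.987 to 1.15) and 7.34 times in Spp1-high cells (3.70 to 17.1, from 1.09 to 8.02 CPM). In neither set was Sulf1 lower with 5-Aza, while over all H3R26C cells it was at 0.634. Spp1, on whose UMIs the sets were cut, itself went from 476 to 4905 CPM over all H3R26C cells, and the part of the class sizes in the level of Sulf1 was not tested. With 5-Aza, H3R26C held 0.733 of the H3WT level of Sulf2 in Spp1-high cells and 0.828 outside the classes, against 0.563 over all cells.

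Enpp2-high cells, with at least 5 UMIs of autotaxin (Enpp2), a lysophospholipase that makes lysophosphatidic acid, had the most Hpse. In H3R26C 5-Aza, 601 such cells (7.89%) had Hpse at 179.7 CPM against 41.5 CPM in other cells, and 54.6% of them had a UMI after thinning. In H3WT 5-Aza, 135 cells had it at 9.21 CPM against 3.44 CPM (ratio 2.68, 1.53 to 4.38). With DMSO this was not seen: H3R26C Enpp2-high cells had 2.13 CPM against 3.30 CPM (ratio 0.646, 0.175 to 1.68), and 38 H3WT cells had 0 UMIs, which allows a level of up to 4.69 CPM. Sdc2 was also highest in the H3R26C 5-Aza Enpp2-high cells, at 534 CPM against 299 CPM in other cells, while in H3WT 5-Aza it was at 205 and 202 CPM.

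Muscle-marker cells, with at least 6 of 12 skeletal muscle genes detected, were 4.74% of H3WT 5-Aza and 4.80% of H3R26C 5-Aza cells and were not found with DMSO (0 of 3710 and 0 of 4727). Gpc1 had the largest ratio among the carriers, at 325 CPM against 34 CPM in other cells of H3WT and 496 against 76.1 CPM in H3R26C. In the same cells Sulf2, Sdc1, Sdc2 and Gpc6 were lower in both genotypes, at 0.365 to 0.679 of the other cells. With the class set at 3 of the 12 genes these ratios were 0.712 to 0.962. Hpse was at 24.8 against 54 CPM in H3R26C and at 1.72 against 3.53 CPM in H3WT, where the interval of the ratio (0.194 to 1.02) spanned 1. Muscle RNA was also found outside the class: a UMI of skeletal actin (Acta1) was present in 32.8% of H3WT 5-Aza and 36.6% of H3R26C 5-Aza thinned cells outside it, at median depths of 13158 and 13065 UMIs. Its part in the levels of Gpc1 in other cells was not tested.

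In cycling cells, with at least 4 of 10 mitosis genes, Gpc1 was higher than in other cells of every library, by 3.03-fold in H3WT DMSO, 2.68-fold in H3WT 5-Aza, 2.56-fold in H3R26C DMSO and 1.73-fold in H3R26C 5-Aza. Sulf1 was at 0.205, 0.359, 0.213 and 0.304 of the other cells. Hpse was 2.07-fold to 3.70-fold higher in cycling cells of the first 3 libraries and at 0.796 of the other cells in H3R26C 5-Aza (0.740 to 0.856). Cycling cells were the deeper ones, with a median of 36432 UMIs in H3WT DMSO against 22420 over the library.

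Interferon cells, with at least 3 of 8 interferon-stimulated genes, were 1.21% of cells with DMSO and 7.93% with 5-Aza in H3WT, and 3.09% and 41.9% in H3R26C. The class was largest in H3R26C 5-Aza, the library with the most Hpse. Within that library Hpse was at 55.6 CPM in interferon cells and 51.2 CPM in other cells, a ratio of 1.09 (1.03 to 1.15). Sulf1 and Sulf2 had ratios of 1.07 and 1.06 there. The other cells leave out the muscle, adipocyte and cycling classes, whereas interferon cells that were also in those classes were kept. The part of the interferon class in the level of Hpse was not tested. Adipocyte-marker cells, with at least 3 of 8 adipocyte genes, were few, 24 to 67 per library. In H3WT 5-Aza they had Sulf2 at 69.3 CPM against 179 CPM in other cells (ratio 0.387, 0.304 to 0.486), and in H3R26C 5-Aza they had Hpse at 40.6 CPM from 17 UMIs against 54 CPM (ratio 0.752, 0.438 to 1.21).

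**Figure D5:**
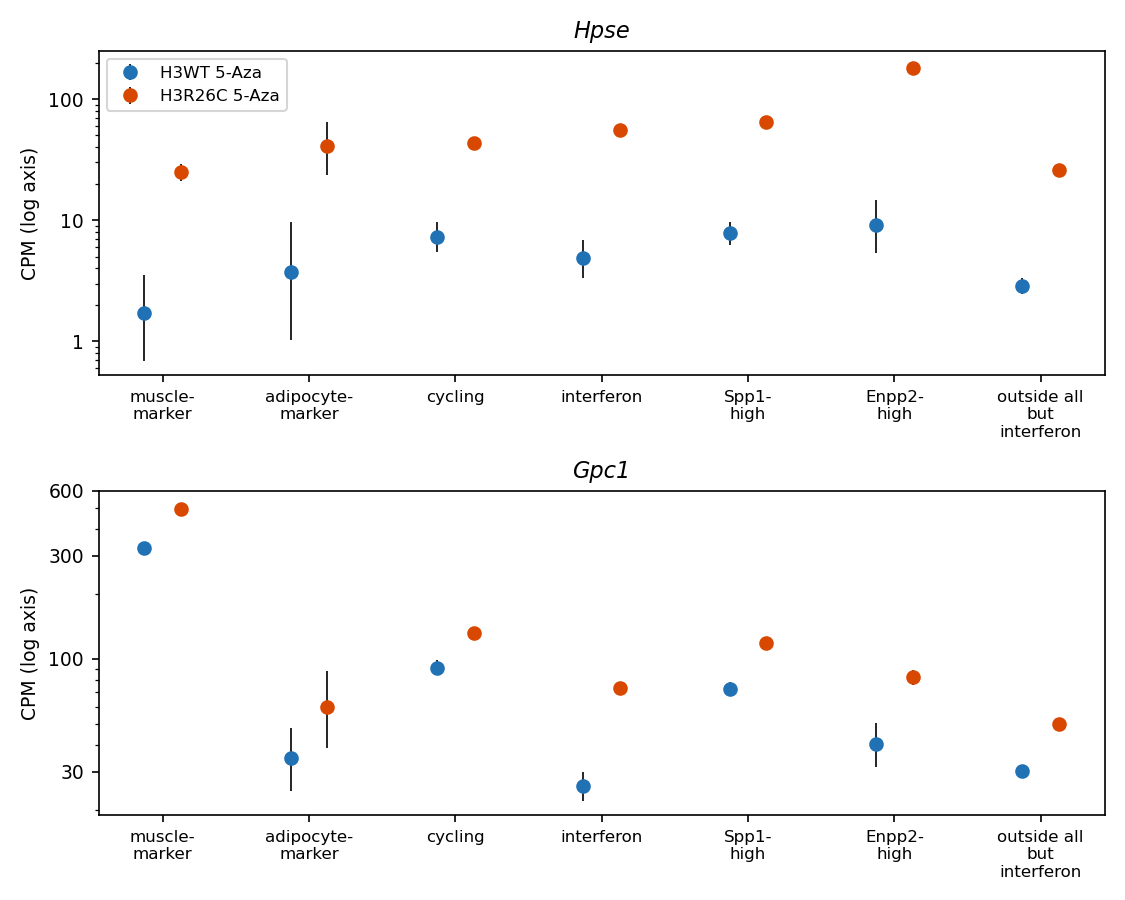
CPM (log axis) of Hpse and Gpc1 by cell class in the 2 libraries with 5-Aza, with 95% Poisson intervals. The last class holds cells in none of the other classes except interferon, and Hpse was higher in H3R26C in all 7 classes, with its highest level of 179.7 CPM in Enpp2-high cells.

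Across the cells of the library where each gene was highest, the genes with the most similar pattern were ranked by Pearson's r of log2(1 + UMIs) in thinned cells, as a description that shares the depth of 5000 UMIs. For Gpc1 over 7619 H3R26C 5-Aza cells they were the muscle regulator Myog (0.354), Ankrd1 (0.328) and Atp2a1 (0.324), the calcium pump of fast muscle. For Hpse in the same cells, added after its share had come out just under the minimum of 20%, they were Enpp2 (0.298), Hopx (0.236) and Ly6e (0.224). Hopx, a homeodomain protein without DNA binding, also led for Sdc2 (0.249), followed by Cpq (0.214) and the collagen gene Col1a1 (0.205). For Sulf2 over 4727 H3R26C DMSO cells they were Clec3b (0.260), the collagen gene Col3a1 (0.249) and Sned1 (0.239). For Sdc4 they were Bsg (0.183) and 2 glycolytic enzyme genes, Pgam1 (0.158) and Ldha (0.154). No gene reached 0.15 with Sdc1, Gpc4 or Gpc6, and Sulf1 and Gpc3 were in too few cells.

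As a last description of single cells of H3R26C 5-Aza, Hpse and Sulf1 were seen together in 0.879% of thinned cells, where the product of their shares gives 1.30%. Hpse and Sdc2 were seen together in 15.4%, where the product gives 14%, and Hpse and Gpc1 in 6.83%, where it gives 6.01%.

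Another 78 genes of the heparan sulfate pathway, in 7 lists, were looked at beside the 10, and 59 of them passed 1 CPM. In H3R26C against H3WT with DMSO, 1 of the 59 was past 2-fold higher, where 1.82% of all genes were, and 2 were lower, where 0.577% were. With 5-Aza, 5 were higher in H3R26C (4.21% of all genes) and 2 were lower (2.68%). In 5-Aza against DMSO within H3WT, 2 were higher (4.38% of all genes) and 1 was lower (0.272%). Within H3R26C, 5 were higher (7.27% of all genes) and 6 were lower (3.12%). The median of the 59 log2 ratios lay between -0.02 and 0.08 in the 4 comparisons. Of the 10 linker and chain synthesis genes that passed 1 CPM, 1 was past 2-fold in any comparison (Xylt1, lower in H3R26C with DMSO). Xylt1, which encodes an enzyme that starts the chain, was at 0.975 CPM in H3R26C and 2.96 CPM in H3WT with DMSO. Xylt2, in the same list, was at 23 and 20.4 CPM there, a ratio of 1.13 (1.06 to 1.20). None of the 5 precursor supply and 9 lysosomal breakdown genes was past 2-fold, but the breakdown genes had a median of -0.45 for the genotypes with 5-Aza. Among 8 chain modification genes, Ndst3, an N-sulfotransferase, was the 1 gene past 2-fold between genotypes, at 2.47 CPM in H3R26C and 0.391 CPM in H3WT with 5-Aza (6.33-fold, 4.40 to 9.37). Hs3st1 was higher with 5-Aza in both genotypes, and the N-sulfotransferase Ndst1 and the 6-O-sulfotransferase Hs6st2 were lower with 5-Aza in H3R26C.

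Of the 6 pathway genes past 2-fold between genotypes with at least 5 CPM in either library, 5 were ligands and receptors of heparin-binding growth factors. Of the 59 pathway genes that passed 1 CPM, 12 were in the ligand list and 7 in the receptor list. Xylt1 and Ndst3, also past 2-fold between genotypes, lay below 5 CPM. Hgf, hepatocyte growth factor, was at 3.50 CPM in H3WT DMSO, 5.49 in H3WT 5-Aza, 23.4 in H3R26C DMSO and 45.3 in H3R26C 5-Aza. Both H3R26C libraries were above both H3WT libraries, by 6.67-fold with DMSO (5.91 to 7.55) and 8.25-fold with 5-Aza (7.50 to 9.10). Met, its receptor, was at 7.26, 12.9, 14.9 and 47.8 CPM in the same order, with H3R26C 3.72-fold above H3WT with 5-Aza (3.49 to 3.98). Hgf, like Hpse, was past 2-fold higher in H3R26C already with DMSO. For Hpse this did not hold in cells thinned to 5000 UMIs.

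Fgfr2 and Fgf18 were lower in H3R26C. Fgfr2, a receptor for FGF ligands, was at 13.2, 9.82, 6.58 and 2.28 CPM, with H3R26C at 0.232 of H3WT with 5-Aza (0.201 to 0.267). Its ligand Fgf18 was at 8.43, 6.82, 3.58 and 2.25 CPM. Hbegf, a heparin-binding EGF-like ligand, was at 17.2, 10.6, 8.64 and 24.6 CPM, lower in H3R26C with DMSO (0.504) and 2.32-fold higher with 5-Aza. Cd44, the hyaluronan receptor, some forms of which carry heparan sulfate, was at 15.4, 25.7, 24.1 and 57.4 CPM, 2.23-fold higher in H3R26C with 5-Aza (2.12 to 2.34).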

How the data were processed

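The deposited files hold UMI counts per gene and barcode for 4 scRNA-seq libraries, 1 per condition. The authors made these counts with Cell Ranger (6.1.0 in the file headers) on mm10, without normalization, and their cell filter was applied here. Counts of kept cells were summed per library and scaled to CPM. No doublets were removed. Classes were cut from cells thinned to 5000 UMIs without replacement: muscle-marker at least 6 of 12 genes, adipocyte-marker 3 of 8, cycling 4 of 10, interferon 3 of 8, Spp1-high 10 UMIs and Enpp2-high 5 UMIs. Intervals are exact (Poisson for CPM, Clopper-Pearson for shares, conditional binomial for ratios) at 95% and cover counting error only, since 1 library per condition allows no test. The genes and lists were chosen with earlier results of these data known. Of the other pathway genes, those past 2-fold between genotypes with at least 5 CPM in either library were named with their levels, and others were named from the counts after their values were seen. Genes like a member needed a UMI in at least 5% of cells. Alternatives changed the scaling (TMM from edgeR 4.0.16), pseudocount, cell filter, thinning and cells included. Ratios, with a pseudocount of 0.1 CPM, and their intervals were tested on simulated Poisson counts. Thinning was checked on the 4 libraries, where each thinned cell held the set number of UMIs. Positions came from GENCODE M21. Python 3.11.15, numpy 2.4.6, scipy 1.17.1 and pandas 2.3.3 were used.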

Additional observations from a re-analysis of the deposited data

Results flagged for a closer look

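Sulf1 had opposite signs in the 2 genotypes and in the 2 treatments, with each counting interval leaving out a ratio of 1. Between genotypes (H3R26C over H3WT) it was 0.29 on the log2 scale with DMSO and -0.78 with 5-Aza, and that of 5-Aza to DMSO was 0.45 in H3WT and -0.62 in H3R26C. With 1 library per condition the difference was not tested. These ratios are over whole libraries. In thinned cells, the shares with a UMI of Sulf1 in the 2 DMSO libraries had overlapping intervals (8.54% to 10.4% in H3WT and 8.82% to 10.5% in H3R26C). In cells outside all classes but interferon, H3R26C was 1.37 times H3WT with DMSO (1.28 to 1.46) and 0.999 with 5-Aza (0.923 to 1.08). In the same cells 5-Aza was 1.46 times DMSO in H3WT (1.37 to 1.56) and 1.07 in H3R26C (0.987 to 1.15). In Spp1-high cells H3R26C was at 0.323 of H3WT with DMSO (0.113 to 0.882) and 0.555 with 5-Aza (0.465 to 0.666).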

How the results depend on the processing

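No paired analysis was possible because the labels give no replicate numbers and conditions were sequenced as single libraries. Over 8 alternatives and 40 log2 ratios, 261 of 320 values stayed within the counting interval of the reported ratio and 59 did not. Of the 320, 5 crossed 2-fold and 5 changed sign. The sign changes were at ratios near 1 for Sulf2 and Sdc1 between genotypes with DMSO and for Gpc6 with 5-Aza in H3WT. For Gpc3 between genotypes with DMSO the ratio was 1.38 (0.233 to 9.41), from only 4 and 3 UMIs. With cells thinned to 5000 UMIs, 0 of the genes were past 2-fold higher in H3R26C with DMSO, in place of 1 (Hpse). With a pseudocount of 0.1 CPM, with a looser cell filter (1000 UMIs, 500 genes) and with a stricter one (10000 UMIs, 2500 genes, 10% mitochondrial), 2 were past 2-fold higher with 5-Aza in H3WT, in place of 1: Gpc1, whose log2 ratio lay just under the minimum, crossed it. The other counts did not change. Without muscle-marker, adipocyte-marker and cycling cells the log2 ratio of Gpc1 with 5-Aza in H3WT was 0.56, further below the minimum. Shares of cells moved with the thinning depth, by construction. With at least 3 of 12 muscle markers, Gpc1 stayed higher in muscle-marker cells (4.19-fold in H3WT, 3.03-fold in H3R26C), and the ratio of Hpse in H3WT went from 0.488 to 1. In the same cells Sulf2, Sdc1 and Gpc6 went from 0.416, 0.458 and 0.394 to 0.762, 0.796 and 0.862 in H3WT, and in H3R26C from 0.365, 0.477 and 0.411 to 0.712, 0.778 and 0.849. Gpc3 had 3 to 30 UMIs per library, so its ratios have wide counting intervals.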
